A study of Mus musculus with 2 samples.

Results

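Axon guidance genes of the Eph, ephrin, Slit, Robo and netrin systems were measured in the hippocampus of young mice. Members were the genes whose symbol belongs to the Eph receptors, ephrins, Slit1 to Slit3, Robo1 to Robo4, netrins and netrin-G proteins, Unc5a to Unc5d or Dcc, and which have an annotated protein-coding transcript. The rule used names and no measured value. It gave 40 genes among 55536 annotated genes, of which 22015 were nuclear protein-coding genes. The mice were 10-day-old B6CASTF1/J females, which are first-generation hybrids of C57BL/6J and the wild-derived CAST/EiJ strain. Total RNA of hippocampus was used, which the labels call a layer without saying which layer. Each of the 2 libraries held 3 mice pooled and started from 300 ng of RNA, with ERCC spike-in RNAs and ribosomal RNA reduced. The labels number the libraries as biological replicates 1 and 2 of a single group, with differently numbered animals but the same donor entry. There was no second tissue, age, genotype or treatment.

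These genes encode cues and receptors that steer growing axons and later shape synapses. Ephrins are bound to the membrane and activate Eph receptor tyrosine kinases on the neighbouring cell, and they can signal in the reverse direction as well. Slits are secreted and bind Robo receptors, usually repelling the axon, while secreted netrins attract through Dcc and repel when Unc5 receptors take part. Netrin-G proteins are anchored to the axon membrane and bind the postsynaptic proteins Lrrc4c and Lrrc4.

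The libraries held 29858328 and 32275110 expected counts, estimates of the reads from each gene, and members took 88693 and 97201 of them. Markers of the hippocampal fields were all detected, 8 of 8. The pools differed in other tissue markers. Summed levels of 12 myelin genes were 215 and 623 TPM (a level scaled by transcript length), with 11 of the 12 called higher in replicate 2 by the library test described further on. A list of 10 neocortex and subiculum genes summed to 212 and 156 TPM, a list of 9 thalamus and habenula genes to 140 and 118, and 7 progenitor genes to 172 and 146. A list of 8 choroid plexus and ependymal genes summed to 454 and 703, of which the choroid plexus gene Ttr made 422 and 670.1. The 8 hippocampal field genes summed to 868 and 1051, of which Slc17a7 made 479 and 619. Of these 8, 5 were higher in replicate 2 in TPM while Wfs1, Cpne4 and Zbtb20 were lower, and 0 were called. In such bulk tissue, fewer cells of a type and less RNA per cell cannot be told apart.

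The isoform results turn on the alternative coding sequences that follow. Short exons of coding transcripts are shown with 12 flanking bases on each side in lower case and the exon in capitals, 5′ to 3′ on the gene's strand. Sequences are those of the GENCODE M21 reference transcripts on mm10 (GRCm38), and coordinates are those of the exon alone. The exon of Robo2 lies at chr16:74008775-74008786 (minus strand), and those of Slit2 lie at chr5:48191003-48191014, chr5:48220967-48220990 and chr5:48263641-48263667 (plus strand). Unc5d has its exon at chr8:28725148-28725162 (minus) and Unc5c at chr3:141786857-141786913 (plus). In the ephrins and Epha5 the exons lie at chr3:89315808-89315885 (Efna3, minus), chr17:62613316-62613396 (Efna5, minus) and chr5:84117561-84117626 (Epha5, minus).
Robo2 12-base exon: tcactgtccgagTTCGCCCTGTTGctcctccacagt
Slit2 12-base exon: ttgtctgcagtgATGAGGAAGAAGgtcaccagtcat
Slit2 24-base exon: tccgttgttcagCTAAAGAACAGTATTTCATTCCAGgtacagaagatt
Slit2 27-base exon: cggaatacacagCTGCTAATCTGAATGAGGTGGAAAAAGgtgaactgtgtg
Unc5d 15-base exon: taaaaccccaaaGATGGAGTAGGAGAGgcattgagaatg
Unc5c 57-base exon: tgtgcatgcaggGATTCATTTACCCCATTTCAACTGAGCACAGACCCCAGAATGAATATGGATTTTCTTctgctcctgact
Epha5 66-base exon: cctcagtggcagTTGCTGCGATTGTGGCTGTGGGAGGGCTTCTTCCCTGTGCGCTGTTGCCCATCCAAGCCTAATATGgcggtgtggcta
Efna3 78-base exon: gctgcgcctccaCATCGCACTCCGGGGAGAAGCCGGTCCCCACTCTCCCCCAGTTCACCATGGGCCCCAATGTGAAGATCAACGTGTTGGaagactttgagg
Efna5 81-base exon: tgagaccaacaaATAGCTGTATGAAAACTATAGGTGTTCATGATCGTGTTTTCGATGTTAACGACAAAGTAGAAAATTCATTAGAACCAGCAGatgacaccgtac

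The coding transcripts of Epha7 part at the end of an exon. All share the 12 lower-case bases that end a common coding exon, and capitals mark what follows in each. In Epha7-202 the capitals are the last coding bases, chr4:28946219-28946250, and in Epha7-204 they are the last coding bases at chr4:28966523-28966602. In the full-length Epha7-201 they are a 12-base stretch at chr4:28947528-28947539, which Epha7-203 lacks. That stretch starts the following exon, and 12 more bases of the same exon follow it in lower case.
Epha7-202 end: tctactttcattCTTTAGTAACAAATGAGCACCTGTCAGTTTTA
Epha7-204 end: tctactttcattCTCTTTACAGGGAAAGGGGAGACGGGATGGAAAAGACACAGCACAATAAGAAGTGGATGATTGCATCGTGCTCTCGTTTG
Epha7-201 stretch: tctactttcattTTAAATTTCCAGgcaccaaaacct

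The first question was which guidance genes the tissue contained and at what level. Most were present, and receptors of the EphA class led. At a TPM of 1 or more in both libraries 37 of 40 members were detected, or 92.5%, beside 59.1% of nuclear protein-coding genes. The exceptions were Epha2 at 1.11 and 0.93 TPM, Ntn5 at 0.33 and 0.35 and Epha1 at 0.17 and 0.14. The median member stood at 14.0 and 12.2 TPM, against 3.95 and 3.57 for all nuclear protein-coding genes, and against a median of 15.4 for those that were detected. A mean TPM of 5 or more was reached by 30 members, and 22 reached 10 in both libraries.

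**Figure D1:**
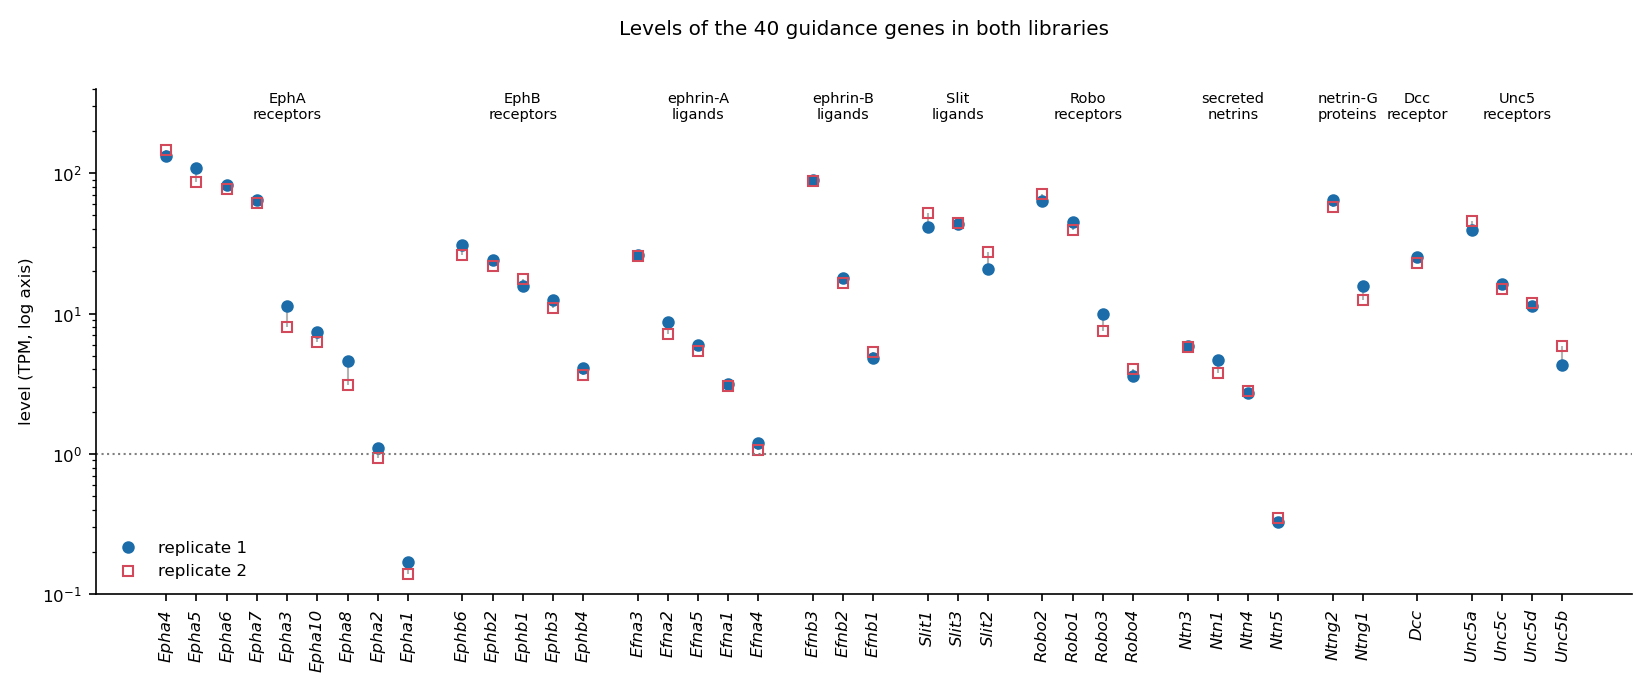
Level of each of the 40 guidance genes in TPM on a log axis, grouped by receptor or ligand class, with a filled circle for replicate 1 and an open square for replicate 2. The dotted line marks 1 TPM. Epha4 is highest at 133 and 147 and Epha1 lowest at 0.17 and 0.14.

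EphA receptors bind mainly ephrin-A ligands, and Epha4 also binds ephrin-B ligands. Their 9 genes summed to 413 and 391 TPM, the highest sum of the 10 classes. Epha4 (ENSMUSG00000026235.14, chromosome 1, 77367185 to 77515088), a receptor of growth cones and dendritic spines, stood at 133 TPM in replicate 1 and 147 in replicate 2. It was the highest of all members and exceeded 97.6% of nuclear protein-coding genes. Epha5 followed at 108 and 87.1, Epha6 at 82.4 and 77.7 and Epha7, a receptor with known short forms, at 64.6 and 61.0. In gene levels these 4 receptors kept the same order in both libraries without overlapping values. The read-based tables, a second estimate of transcript levels that the submitters made from the reads, kept the order of means, but there Epha5 at 149.6 and 120.1 overlapped Epha6 at 128.7 and 119.8. A gap came next, since Epha3 stood at 11.3 and 7.99 and Epha10, whose kinase domain is thought to be inactive, at 7.40 and 6.31. Epha8 was at 4.63 and 3.12. Gene levels and class sums include non-coding transcripts, and retained-intron forms took 35.5% and 33.2% of Epha5. The only coding transcript of Epha6 stood at 52.9 and 49.4. Short coding forms of Epha7, described further on, made 34.4 and 35.0, and its long forms 18.7 and 15.8. The order of Epha6 over Epha7 therefore holds for gene levels and not for coding transcripts.

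EphB receptors, which bind ephrin-B ligands, summed to 87.1 and 79.9 TPM over 5 genes. The summed EphA level was 4.82 ± 0.11 times that of EphB (SD, n = 2). Ephb6, a receptor without kinase activity, stood at 30.8 and 26.1. Ephb2, a receptor that acts with NMDA receptors at synapses, followed at 24.1 and 21.7, ahead of Ephb1 at 15.7 and 17.5. Ephb3 was at 12.4 and 11.0, and Ephb4, a receptor of veins, at 4.09 and 3.66. The order was the same in both libraries and neighbours did not overlap.

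Ephrin-A ligands, held to the membrane by a lipid anchor, were low by comparison with their receptors. Their 5 genes summed to 45.2 and 42.4 TPM, so that EphA receptors were 9.18 ± 0.06 times as high (SD, n = 2). Efna3 accounted for 58.1% and 60.8% of the sum, at 26.2 and 25.8 TPM. Efna2 stood at 8.67 and 7.10 and Efna5 at 5.93 and 5.41. Efna1 was at 3.15 and 3.03 and Efna4 at 1.19 and 1.06. Both are close to Efna3 on chromosome 3, Efna1 at 32.8 kb and Efna4 at 10.4 kb.

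Ephrin-B ligands have a membrane-spanning segment and a tail that signals in the reverse direction. Their 3 genes summed to 112 and 110 TPM, 2.53 ± 0.08 times the ephrin-A sum (SD, n = 2). Efnb3 (ENSMUSG00000003934.5, chromosome 11, 69554092 to 69560205), a ligand that blocks crossing of axons at the spinal midline, stood at 89.0 and 88.1. It made up 79.7% and 80.2% of the class and ranked 3 of 40 among all members. Efnb2, which also acts in arteries, followed at 17.9 and 16.4, and the X-linked Efnb1 at 4.84 and 5.30. In contrast to the EphA side, EphB receptors were 0.75 ± 0.04 times the summed ephrin-B level.

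Slit ligands summed to 106 and 124 TPM over 3 genes. Slit1 (ENSMUSG00000025020.11, chromosome 19, 41600257 to 41743665) stood at 41.7 and 52.3 and Slit3 at 43.3 and 44.4. Their values overlapped, whereas in the read-based tables Slit3 at 72.6 and 74.0 stood above Slit1 at 56.1 and 71.7. Slit2 was below both at 20.95 and 27.7. Robo receptors summed to 123 and 122 TPM, which was 1.16 times the Slit sum in replicate 1 and 0.98 times in replicate 2. In the read-based tables it was 1.38 and 1.26 times, with Robos at 225 and 243 TPM and Slits at 163 and 193. These Robo sums include the 430-base non-coding transcript Robo2-207 at 49.0 and 72.4. In replicate 2 that transcript was larger than the gap between the sums. Robo2 (chromosome 16, 73891839 to 74411825) led at 63.8 and 71.3, and Robo1, its neighbour on the same chromosome, stood at 45.3 and 39.5. The divergent receptor Robo3, which does not bind Slits with high affinity in mammals, was at 9.97 and 7.56. Robo4, a receptor of endothelial cells, was at 3.62 and 4.01. Robo3 and Robo4 lie on opposite strands with their ends 0.55 kb apart.

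Among secreted netrins the levels were low. The 4 genes summed to 13.6 and 12.8 TPM. Ntn3 stood at 5.91 and 5.82, Ntn1, the classical attractive cue, at 4.66 and 3.77, and Ntn4, a netrin of basement membranes, at 2.72 and 2.81. Netrin-G proteins, with 2 genes, summed to 79.9 and 70.4, or 5.69 ± 0.25 times the secreted netrins (SD, n = 2). Ntng2 (ENSMUSG00000035513.19, chromosome 2, 29194541 to 29253005) made up most of this at 64.3 and 57.9, with Ntng1 at 15.6 and 12.5.

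Of the netrin receptors, Dcc stood at 25.1 and 22.9 TPM. Unc5 receptors summed to 71.3 and 78.5, which was 2.84 times the Dcc level in replicate 1 and 3.43 times in replicate 2. Unc5a led with 39.3 and 45.9. Unc5c stood at 16.3 and 14.9, Unc5d at 11.4 and 11.9 and Unc5b, which also acts in vessels, at 4.29 and 5.91. Within the 10 classes, 29 of 30 neighbours in order of mean level did not overlap between the libraries, with Slit1 and Slit3 the exception. Over all members this held for 15 of 39 neighbours, so the order across classes is less certain. Genes split into classes lie further apart than in a single list, so the counts are not comparable. No such share is given for other genes, and the counts describe these libraries alone.

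Some levels rest on gene models that share exonic bases. Ntng2 shares 14.0% of its exonic bases with 6530402F18Rik, a non-coding gene on the same strand at 22.0 and 20.1 TPM. Ntn3 shares 1.74% with Tbc1d24 on the same strand, which stood at 38.4 and 33.0. Epha1 shares 6.01% with Zyx on the opposite strand, at 24.6 and 24.2, while Ntn5 shares 23.4% with Sec1, at 0.06 and 0.07. Efna3 and Efna4 overlap antisense genes at 0.20 TPM or less. The sources used here do not give whether counting used strand.

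The second question was how members stood to each other within a library. The member with the highest mean made up most of the summed level of the ephrin-A, ephrin-B, Robo, netrin-G and Unc5 classes. In the EphA, EphB, Slit and secreted netrin classes its share was lower. There it ran from 32.1% (EphA, replicate 1) to 45.6% (secreted netrins, replicate 2). For each pair a log2 ratio of TPM + 0.1 was taken in each library, and a pair was called when the sign was shared by both and the mean was beyond 2 SD. Of 21 pairs, 20 were called. The gene named first was higher in 16 of these and lower in 4. The smallest p a two-sided exact sign-flip test can give with 2 libraries is 0.5, so calls describe the libraries and carry no test. Epha6 exceeded Epha3 by 3.06 ± 0.29 (log2, SD, n = 2), or 8.35-fold, the widest of the 21 differences. Efnb3 exceeded Efnb2 by 2.36 ± 0.08 and Efna3 exceeded Efna5 by 2.18 ± 0.07.

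In the netrin groups, Ntng2 exceeded Ntng1 by 2.12 ± 0.12, or 4.35-fold, and Unc5a exceeded Unc5d by 1.86 ± 0.12. The receptor partners of netrin-G proteins stood closer together than their ligands, with Lrrc4c at 33.2 and 27.7 TPM and Lrrc4 at 27.3 and 26.4. Lrrc4c, the partner of Ntng1, exceeded it by 1.11 ± 0.04, whereas Lrrc4, the partner of Ntng2, was lower than it, with a log2 ratio of −1.18 ± 0.08. These ratios use all transcripts of a gene. The Ntng2 level includes Ntng2-211, annotated for nonsense-mediated decay, at 28.3 and 27.8 TPM. Its main coding transcript Ntng2-204, at 28.1 and 26.3, stood close to Lrrc4. Neo1, a receptor related to Dcc, stood at 71.4 and 65.3 TPM, and the log2 ratio of Dcc to Neo1 was −1.51 ± 0.00. Dcc exceeded Unc5c by 0.62 ± 0.00.

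Other pairs were closer. Ephb6 over Ephb2, at 0.31 ± 0.06, had the smallest mean of the 21, and Ntn1 exceeded Ntn4 by 0.58 ± 0.24. Robo1 stood below Robo2 with a log2 ratio of −0.67 ± 0.25, and Slit2 below Slit3 with −0.86 ± 0.26. Epha4 over Epha5 was 0.29 in replicate 1 and 0.75 in replicate 2, and this was the pair that was not called. In the read-based tables that pair was called with a mean of 0.67. Ephb2 over Ephb1, at 0.46 ± 0.22, was not called there, with a mean of 0.28.

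**Figure D2:**
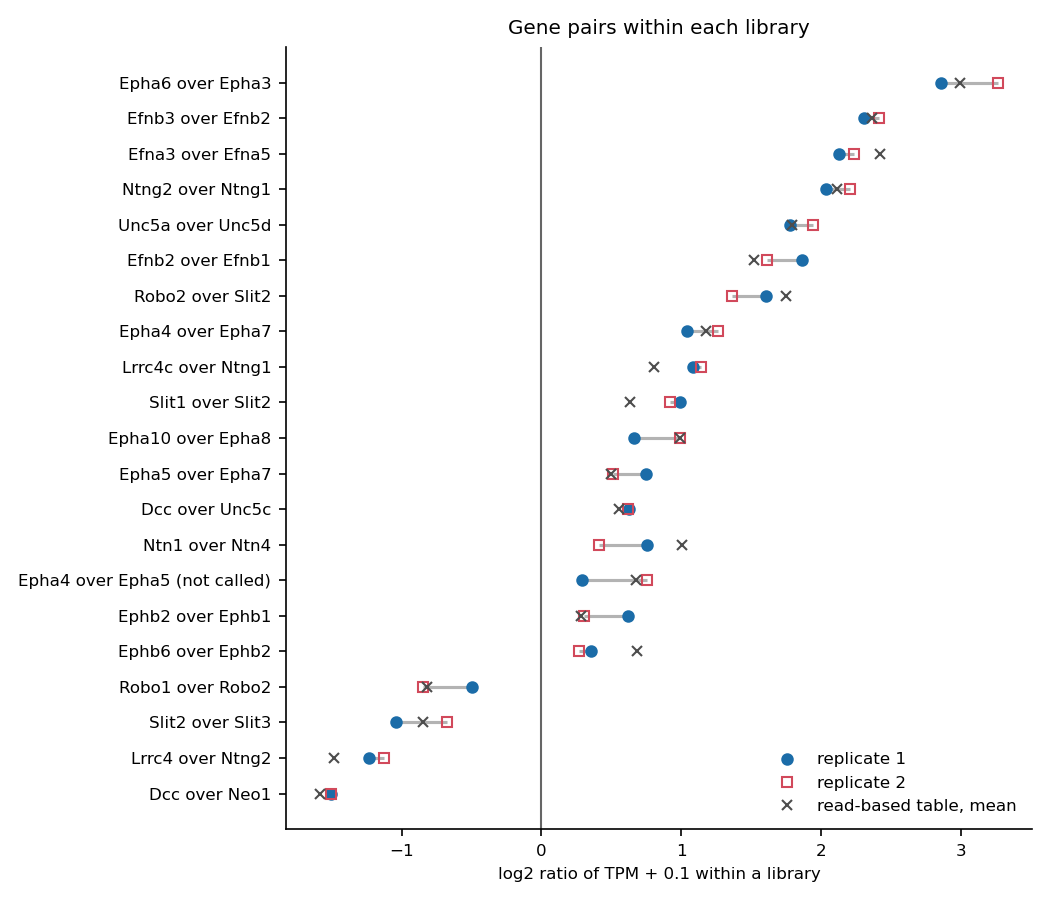
Log2 ratio of TPM + 0.1 for 21 gene pairs, with a filled circle for replicate 1, an open square for replicate 2 and a cross for the mean of the read-based tables. Pairs to the right of 0 have the first gene higher. Epha4 over Epha5, at 0.29 and 0.75, is the pair that was not called.

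The other genes of these pathways came from lists of intracellular partners. All 25 genes of the Eph signalling list were detected, led by Chn1, a Rac-inactivating protein that acts below Epha4, at 305 and 393 TPM. Rac1 stood at 197 and 221, Cdc42 at 195 and 201 and the exchange factor Kalrn at 149 and 149. Of the 25, 16 had an adjusted p under 0.05 toward replicate 2 and 4 toward replicate 1 in the library test that follows, with TMM scaling, beside 15.7% and 11.5% of all genes tested. These directions depend on the scaling, since spike-in totals shift log2 ratios by −0.28, as described further on. Of the 16, only Chn1 at 0.52 and Inppl1 at 0.31 had a ratio larger in size than that shift. In the ephrin shedding and reverse signalling list 9 of 10 were detected, led by Arhgap32 at 80.0 and 81.6, Flot1 at 71.2 and 71.9 and Sdcbp, a PDZ protein that binds ephrin-B tails, at 61.2 and 71.9. The protease Adam10, which cleaves ephrins, stood at 34.9 and 30.8. In that list 2 genes passed toward each replicate.

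All 17 genes of the Slit and Robo list and all 16 of the netrin list were detected. Nell2, a secreted ligand of Robo3, stood at 278 and 329 TPM, above each of the Slits. Srgap3, a GTPase-activating protein that binds Robo1, was at 112 and 103, ahead of the heparan sulfate proteoglycan Gpc1 at 72.7 and 74.3 and the actin regulator Enah at 75.9 and 64.8. The netrin list was led by Maged1, a partner of Unc5a, at 227 and 237, followed by Pitpna at 137 and 137 and the ubiquitin ligase Trim9, which binds Dcc, at 131 and 122, and the kinase Pak1 at 76.8 and 73.2. Of the postsynaptic partners of netrin-G proteins and their relative, Lrrc4b stood at 160 and 176, Lrrc4c at 33.2 and 27.7 and Lrrc4 at 27.3 and 26.4. In the library test 6 of the 17 Slit and Robo list genes and 6 of the 16 netrin list genes had an adjusted p under 0.05 toward replicate 2, with 3 and 2 toward replicate 1. Of all genes tested, 15.7% passed toward replicate 2 and 11.5% toward replicate 1. Among the list genes that passed toward replicate 2, only Nell2 at 0.35 and Flrt3 at 0.31 had a log2 ratio larger in size than the spike-in shift of −0.28. None of the genes in these lists, or in the list of 3 netrin-G partners, reached a log2 ratio of 1 in either direction at that p.

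The third question was how far the replicate pools differed in these genes. The differences were small, with Slit1, Slit2, Unc5a and Unc5b higher in replicate 2 and Epha5, Epha3, Epha8 and Robo3 higher in replicate 1 under each scaling tried. Counts were compared by an exact two-sided binomial test with TMM scaling and Benjamini-Hochberg adjustment over 20544 genes, which compares the 2 libraries and not conditions. At an adjusted p under 0.05 with a log2 ratio of 1 or more, 0 of 40 members were called, beside 2.83% of all genes tested. An unadjusted p under 0.05 was found for 17 of 40 members, beside 7351 of all 20544 genes tested. At an adjusted p under 0.05 alone there were 15 members, or 37.5%, beside 27.1% of all genes. Of these, 11 were higher in replicate 2, or 27.5% of members beside 15.7% of all genes, and 4 were higher in replicate 1, or 10% beside 11.5%. Calls at this p follow depth, since a gene with more counts passes with a smaller difference. The median size of the log2 ratio was 0.11 in members, against 0.15 in protein-coding genes tested and 0.19 in all genes tested, and 39 of 40 members lay within 1.5-fold. The share of all genes within 1.5-fold is not given, and members were not compared with genes of similar counts.

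With TMM scaling all 3 Slits were higher in replicate 2, but Slit3 was not with spike-in scaling, at −0.04. Slit1 had 4351 and 5949 expected counts, a log2 ratio of 0.42 ± 0.03 (counting SE; adjusted p = 3.3e-46, exact binomial test). Slit2 had 2719 and 3631 counts and a ratio of 0.38 ± 0.04, and Slit3 3503 and 4251 with 0.25 ± 0.03. Unc5b, with 500 and 771 counts, had the widest ratio of the members that passed, 0.59 ± 0.08, and Unc5a had 0.37 ± 0.04. Epha4 was higher in replicate 2 by 0.28 ± 0.02 with 13294 and 16481 counts, and Ephb1 by 0.27 ± 0.05. The remaining members higher in replicate 2 were Unc5d, Robo2, Efnb3 and Robo1, with ratios from 0.07 to 0.15. In TPM the direction was the other way for Robo1, at 45.3 and 39.5, and for Efnb3, at 89.0 and 88.1. With total counts their ratios were −0.01 and 0.01.

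Toward replicate 1, Epha8 had 441 and 326 counts and a log2 ratio of −0.47 ± 0.11 (adjusted p = 8.0e-05, exact binomial test). Robo3 had −0.32 ± 0.08, Epha3 −0.28 ± 0.07 and Epha5 −0.22 ± 0.02 with 9781 and 8596 counts. Epha2, at −0.48 ± 0.25 with 79 and 58 counts, did not pass, and Epha1 and Ntn5 had 12 counts or fewer in each library.

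Directions depended on the scaling. With spike-in totals, which shifted the median of all genes tested by −0.28, 29 members passed, 4 higher in replicate 2 and 25 higher in replicate 1. The 4 were Slit1, Slit2, Unc5a and Unc5b, while Robo1, Robo2, Efnb3 and Unc5d passed in the opposite direction, and Slit3, Epha4 and Ephb1 did not pass, with ratios of −0.04, −0.01 and −0.01. Total counts, which shifted the median of all genes tested by −0.08, gave 7 higher in replicate 2 and 10 higher in replicate 1. The share of all genes with an adjusted p under 0.05 is not given for these scalings. The summed myelin, choroid plexus, hippocampal field, neocortex and subiculum, thalamus and progenitor markers given above differed between the same libraries. Their part in these differences was not tested.

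**Figure D3:**
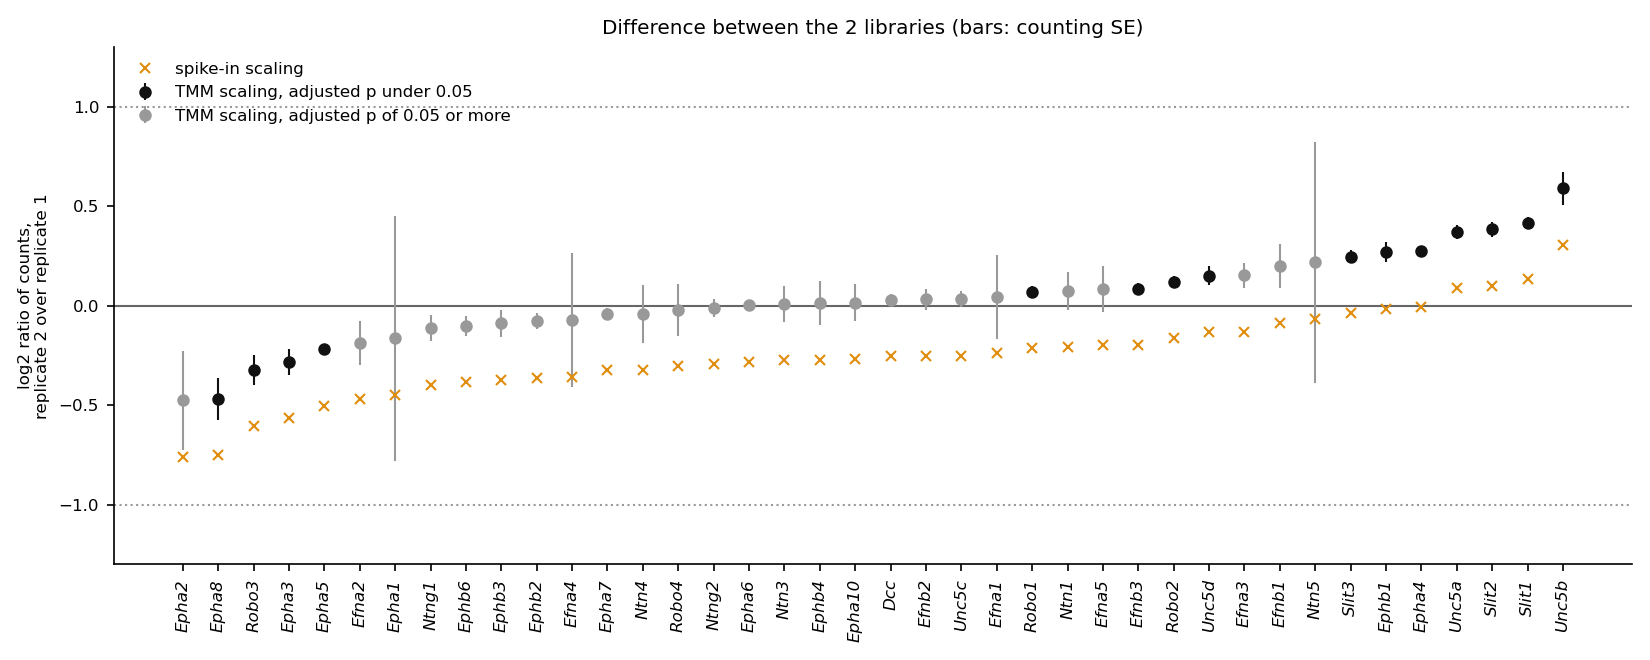
Log2 ratio of counts, replicate 2 over replicate 1, for the 40 guidance genes, with TMM scaling as circles (black where the adjusted p was under 0.05) and bars for the counting SE. Crosses show spike-in scaling, which lies 0.28 lower, and dotted lines mark ratios of 1 and −1. No member reaches the dotted lines.

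Robo1 stood at 45.3 and 39.5 TPM, and its leading transcript Robo1-201 took 49.1% of its TPM in replicate 1 and 66.5% in replicate 2. In the read-based tables these shares were lower, at 33.7% and 49.1%. Robo1-206, with 4865 coding bases beside 4836 in Robo1-201 but without both ends annotated, stood at 11.5 and 6.71 TPM.

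The fourth question was which isoforms carried these levels. For most members both estimates named the same transcript. Of 30 members with a mean TPM of 5 or more, 25 had the same leading transcript in both libraries and both the alignment-based and the read-based tables. Among the 25, Efnb3 and Efna2 have a single annotated transcript, so theirs could not differ. The exceptions were Epha5, Robo2, Ntng2, Ephb2 and Ntng1. In Epha5 the transcript with the highest alignment-based level was Epha5-207, a retained-intron form, at 24.8 and 20.6 TPM, and in the read-based tables the coding Epha5-204 led. Ntng2 was split between Ntng2-211, annotated for nonsense-mediated decay, at 28.3 and 27.8, and the coding Ntng2-204 at 28.1 and 26.3. For Robo2 the 430-base non-coding Robo2-207 stood at 16.6 and 22.5 in the alignment-based and 49.0 and 72.4 in the read-based tables, and the gene's read-based level was 2.04 times its alignment-based level, beside a median of 1.52 for members.

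Short coding forms of Epha7 outweighed the full-length receptor. Epha7-202 stood at 17.3 and 20.4 TPM, with deposited intervals of 14.7 to 18.6 and 17.8 to 22.0, and Epha7-204 at 17.1 and 14.6. Full-length Epha7-201 was at 12.7 and 10.7, with intervals of 10.0 to 13.9 and 8.24 to 12.6, and Epha7-203 at 5.97 and 5.18. The intervals of Epha7-202 and Epha7-201 did not overlap in either library, whereas those of Epha7-204 and Epha7-201 did in both. Both short forms have 10 coding exons, share 1798 coding bases or 60.1% of the 2994 coding bases of Epha7-201, and end in the stretches printed above. The 17 coding exons of the full-length form include those for the kinase domain, and short Epha7 forms that lack it are known. Of the TPM of coding transcripts with annotated ends, short forms took 64.8% and 68.8%, and 62.4% and 67.6% in the read-based tables.

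**Figure D4:**
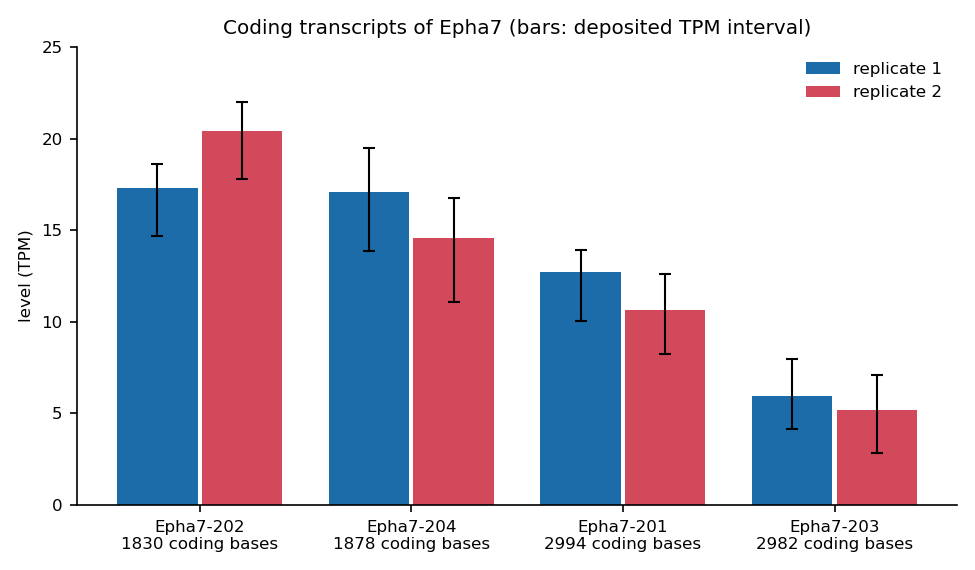
Level in TPM of the 4 coding transcripts of Epha7 in replicate 1 (blue) and replicate 2 (red), with the deposited TPM interval of each estimate as the error bar. Epha7-202 and Epha7-204 end after 10 coding exons, and both stand above the full-length Epha7-201 at 12.7 and 10.7.

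Other receptors held smaller shares of short forms, meaning coding sequences under 70% of the longest with both ends annotated. Shares are of the TPM of short and longer coding transcripts together, not of all transcripts of the gene. Epha10-201 with 876 coding bases took 29.0% and 25.8% in Epha10, and 37.4% and 30.6% in the read-based tables. Epha3-206, with 1614 coding bases, took 9.26% and 8.19% of Epha3, and Ephb1-203 took 5.31% and 4.72% of Ephb1. The longest form of Epha10 has no annotated start, so its share is less certain.

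Alternative coding stretches were then taken from coding transcripts that share both flanking splice sites. Of 49 such events in the members, 20 in 12 genes had transcripts with a mean of 5 TPM or more and an inclusion between 5% and 95% in both libraries and both tables. These were 15 cassette exons and 5 alternative acceptors, and all 20 had a length divisible by 3, as had 46 of the 49. Inclusion is the share of transcript TPM that contains the stretch. It differed by 5 percentage points or less between the libraries in 18 of 20, with Epha3 and Efna5 as the others, and by up to 18.9 points between the tables within a library, the 24-base exon of Slit2 in replicate 2.

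Both Slit2 and its receptor Robo2 held a 12-base exon, far shorter than usual and of the kind called microexons. In Slit2 it was included in 65.5% and 65.9%, and the 24-base and 27-base exons in 9.37% and 8.55% and in 9.37% and 6.28%. The latter 2 exons are not separate measurements, since both rest mainly on Slit2-217 at 1.27 and 1.05 TPM. The deposited intervals of that transcript were 0.44 to 2.24 and 0.30 to 1.75. In the read-based tables the 24-base exon stood at 13.9% and 27.5%. The Robo2 exon was included in 48.2% and 44.2% of coding transcript TPM. That value depended on the transcripts counted, with 63.9% and 64.9% over all transcript classes and 25.8% and 23.1% over coding transcripts with both ends annotated. A 126-base exon of Robo2 was included in 24.1% and 25.1% and a 273-base exon in 33.3% and 31.0%. For the 126-base exon the read-based share was 17.3% and 16.4%, and the share over transcripts with both ends annotated was 36.1% and 35.8%.

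Among the netrin receptors, the 15-base exon of Unc5d was included in 65.2% and 63.8% and the 57-base exon of Unc5c in 27.8% and 30.2%. A 168-base exon occurs in both Unc5a and Unc5d. It was included in 8.96% and 7.41% of Unc5a (chromosome 13, 54997193 to 54997360) and in 87.6% and 90.8% of Unc5d (chromosome 8, 28760725 to 28760892). In the read-based tables these shares were 15.2% and 16.2% for Unc5a and 79.9% and 79.7% for Unc5d, so the 2 receptors stayed far apart. The longer form of Dcc, with 60 additional coding bases at an acceptor, made up 59.8% and 63.8%.

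Ephrin-A ligands and Eph receptors varied as well. The 78-base exon of Efna3 was included in 84.2% and 84.4% and the 81-base exon of Efna5 in 56.5% and 62.7%, with 58.5% and 73.3% in the read-based tables. Epha5 had 3 events, namely the 66-base exon at 74.97% and 70.6%, a 336-base exon at 57.4% and 60.2% and a 156-base exon at 30.8% and 28.2%. The 12-base stretch of Epha7 shown above made up 68.1% and 67.3% of the full-length forms. In Ephb2, 3-base acceptor choices at different exons gave inclusions of 34.5% and 35.5% and of 44.5% and 44.1%. One in Epha3 gave 75.1% and 83.9%.

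**Figure D5:**
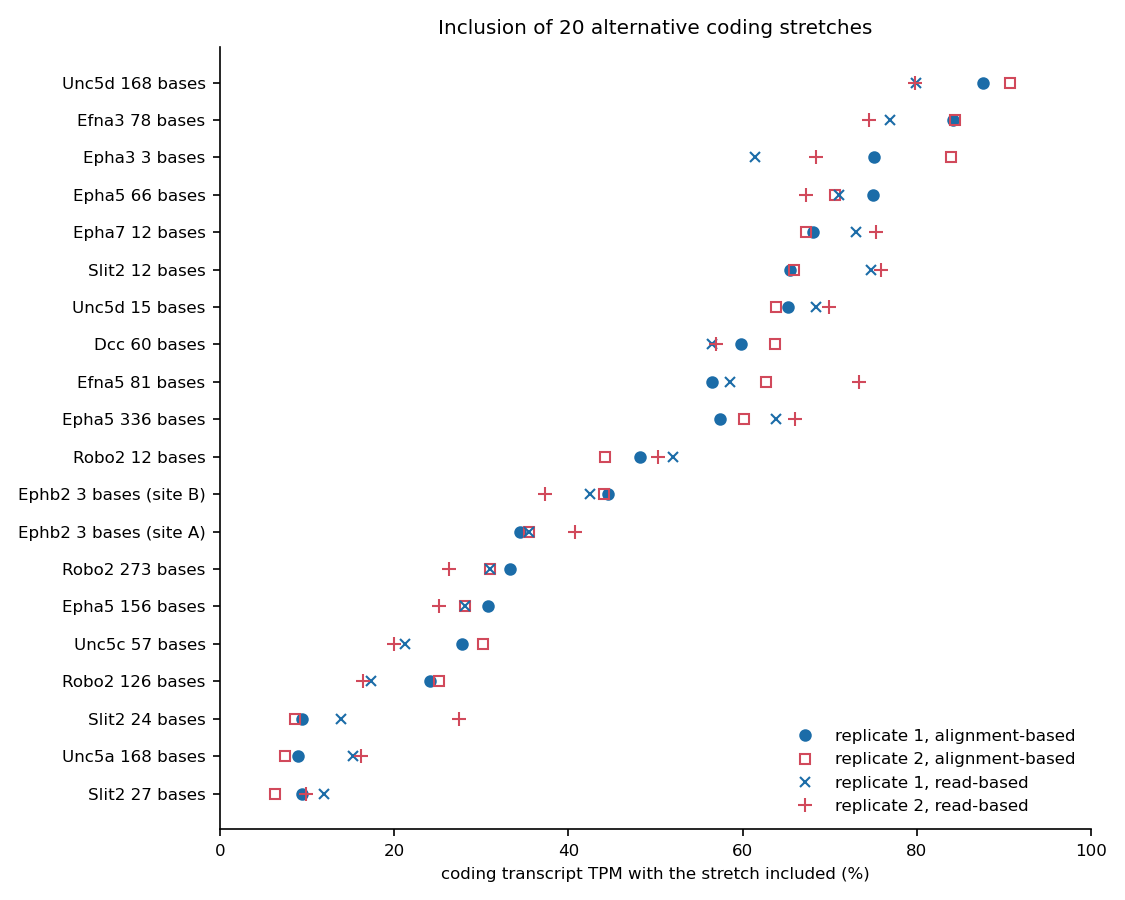
Share of coding transcript TPM that includes each of 20 alternative coding stretches, with circles and squares for replicates 1 and 2 of the alignment-based tables and crosses and plus signs for the read-based tables. Labels give the gene and the length in bases, and the acceptor choices of Ephb2 are marked as sites A and B. The stretches run from the 27-base exon of Slit2, at 9.37% and 6.28%, to the 168-base exon of Unc5d, at 87.6% and 90.8%.

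Retained-intron transcripts, which keep an intron and are often nuclear, took part of several members. Their share was 40.2% and 38.7% in Robo3, 35.5% and 33.2% in Epha5 and 24.0% and 23.5% in Epha6. In Unc5c it was 30.7% and 18.4% and in Slit2 29.8% and 19.99%. The share was higher in replicate 1 in 14 of 17 members that have such a transcript and a mean TPM of 5 or more. This is near the background, since the same held for 75% of 6429 protein-coding genes, whose median share was 12.7% and 9.84%. The median share of the 17 members was 7.71% and 8.91%.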

How the data were processed

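Total RNA-seq of 2 libraries was used. For each library the submitters deposited alignment-based tables of genes and of transcripts, with expected counts, TPM and FPKM per the file headers, and a read-based transcript table with estimated counts and TPM. The assembly is mm10 per the labels, with annotation M21 per the deposited descriptions. The sources used here do not give the programs, the use of strand or the level of the deposited TPM intervals. The reference is that of 1 parent strain, and its effect on these hybrids was not tested.

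Expected counts were rounded. Genes with 10 or more counts summed were tested (exact binomial, TMM of edgeR 4.0.16, R 4.3.3, 0.5 counts added to ratios); DESeq2 1.42.0 gave alternative size factors. Python 3.11.15, scipy 1.17.1 and pandas 2.3.3 did the rest. The library test was checked on simulated data. Every member was accounted for, those at a mean TPM of at least 5 with both values, and pathway lists were given by up to 4 genes of the highest mean TPM. Members, lists and pairs were chosen with earlier results of these data known. Nothing beyond the labels says how independent the pools are. The p-values set the difference between these libraries against counting error alone and hold no estimate of the spread between pools. Counting errors likewise cover counting alone.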

Additional observations from a re-analysis of the deposited data

How the results depend on the processing

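Detection of members was 36 to 38 of 40 with a TPM of 0.5, an FPKM of 1, the read-based tables or either library alone, and 28 with a TPM of 5. The count of members called between libraries was 0 with DESeq2 size factors, total counts, spike-in totals, no filter and read-based counts. Members with an adjusted p under 0.05 numbered 15 to 17 under these settings except spike-in totals, which gave 29, and scaling to spike-ins shifted all genes alike. The count of pairs called was 20 of 21 with a pseudocount of 1 or 0.01 and in the read-based tables, and no called pair changed sign. The leading transcript was the same in 30 of 38 members at a mean TPM of 1 and in 17 of 22 at 10. Levels of all 40 members and sums of all 10 classes moved by more than 1 SD in the read-based tables, by 1.36 to 2.38 times for members, while their order was close, with a Spearman rho of 0.995 across genes, which are not independent replicates. The choice of the isoform settings and of the p threshold alone was made after seeing the data. Inclusion moved by more than 1 SD in all 20 stretches in the read-based tables. No paired analysis was possible because the 2 libraries form a single group. With 2 libraries an SD is itself imprecise, and for Epha1 and Ntn5, with 10 to 12 counts in each library, a difference was not detectable at this depth.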
